A study of Arabidopsis thaliana with 72 samples.

Results

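In Arabidopsis thaliana, 43 genes had reads in the accessions Ws and Col and almost none in the accession Ler. They were taken from the 37336 genes of the deposited count table as those with at least 50 counts in each of the 3 Ws and the 3 Col libraries and at most 5 counts in each of the 3 Ler libraries. The parental counts chose the genes, so the levels in Ws, Col and Ler are a description with no test. What the rule did not use are the hybrids and the F7 lines, in which the level and the presence or absence of counts of the 43 genes were followed.

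RNA came from leaf rosettes of plants aged 25 days, in 24 groups of 3 libraries (72 in all). In the Ws/Ler system these were 7 F7 Hybrid Mimic lines (WL_HM1 to WL_HM7), 2 F7 small lines (wl_sml1 and wl_sml2), the reciprocal hybrids WsxLer F1 and LerxWs F1, and the parents Ws and Ler. In the Col/Ler system they were 6 F7 Hybrid Mimic lines (CL_HM1 to CL_HM6), 2 small lines (cl_sml1 and cl_sml2), the hybrids ColxLer F1 and LerxCol F1, and the parents Col and Ler. Hybrid Mimics are selfed descendants of an F1 hybrid chosen in each generation for an F1-like large rosette, and small lines were chosen for the smallest plants. All plants were wild-type accessions or their offspring with no transgene or treatment, and the Ler libraries are shared by both systems. A parent or F1 library pooled leaves of 3 plants, whereas an F7 library held 1 plant, so the 3 libraries of a line are siblings that can differ in genotype. CL_HM5 and CL_HM6, which the study left out for their plant size, are included.

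Accessions of a plant species differ in whole genes as well as in single bases, and genes for receptor kinases are known for such presence and absence differences. In an F1 hybrid, a gene that only one parent expresses is present as a single active allele. Repeated selfing then fixes either parental allele at most loci, so that a line can have such an active allele on both chromosomes or lack it. A count near 0 in Ler can come from a deleted gene, from a gene whose Ler sequence is too different for its reads to be assigned to the Col reference, or from a silent gene, and these cannot be told apart from counts. Plants that carry less RNA of a gene because fewer cells express it cannot be told apart from plants with less RNA per cell.

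The 43 genes lay on all 5 chromosomes, with 7 on chromosome 1, 5 on chromosome 2, 12 on chromosome 3, 12 on chromosome 4 and 7 on chromosome 5. Protein-coding genes made up 27 of them (62.8%), against 99.1% of the 14185 genes with at least 50 counts in every Ws and Col library. Another 12 were annotated as pseudogenes (27.9%, against 0.458%) and 4 as non-coding RNAs (9.30%, against 0.367%). The protein-coding genes included 5 receptor kinases, 2 ankyrin repeat genes and 1 F-box gene. The receptor kinases were CRK4, CRK14 and CRK15, which belong to the cysteine-rich receptor-like kinases of the plasma membrane, and the leucine-rich repeat kinases AT3G46370 and AT5G59660. They were 11.6% of the genes, against 0.606% of the genes expressed in Ws and Col. Also among the genes were GLR2.1, a glutamate receptor-like channel, MSRB4, which reduces oxidized methionine, AT2G34840, a coatomer epsilon subunit of the COPI vesicle coat, AT2G01090, annotated as a hinge protein of the respiratory ubiquinol-cytochrome c reductase, and SADHU1-2, a retroelement.

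In Ler, 75 of the 129 values of the 43 genes in 3 libraries were 0, and 13 genes had 0 in all 3 libraries. The most abundant gene, AT5G49440, which encodes an uncharacterized protein, had 1658, 2416 and 1939 counts in Ws and 1525, 1519 and 1260 counts in Col, against 1, 1 and 3 counts in Ler. CRK4 had 986, 1384 and 1342 counts in Ws and 787, 931 and 893 in Col, against 0, 0 and 3 in Ler. The parents with and without counts were thus far apart for the abundant genes, as the rule required. Near its limits the separation was smaller. Inside the rule, GLR2.1 (AT5G27100) had a lowest Ws or Col count of 50, AT5G42460 of 52 and CRK15 (AT4G23230) of 60, and just outside it AT1G09995 had 48. In Ler, AT1G74290, CRK15 and AT5G48412 reached the limit of 5 counts, and AT1G20490, AT1G64270, AT2G11240 and AT2G42170 were outside with 6.

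Most neighbouring genes that were expressed in Ws and Col also had counts in Ler. Of the 84 nearest annotated neighbours in the table, 27 had at least 50 counts in every Ws and Col library, and 24 of these 27 also had at least 50 counts in every Ler library. The exceptions were CRK14 and CRK15, which are neighbours of each other, and AT3G61010, a neighbour of AT3G61020 that had 0 to 7 counts in Ler.

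**Figure D1:**
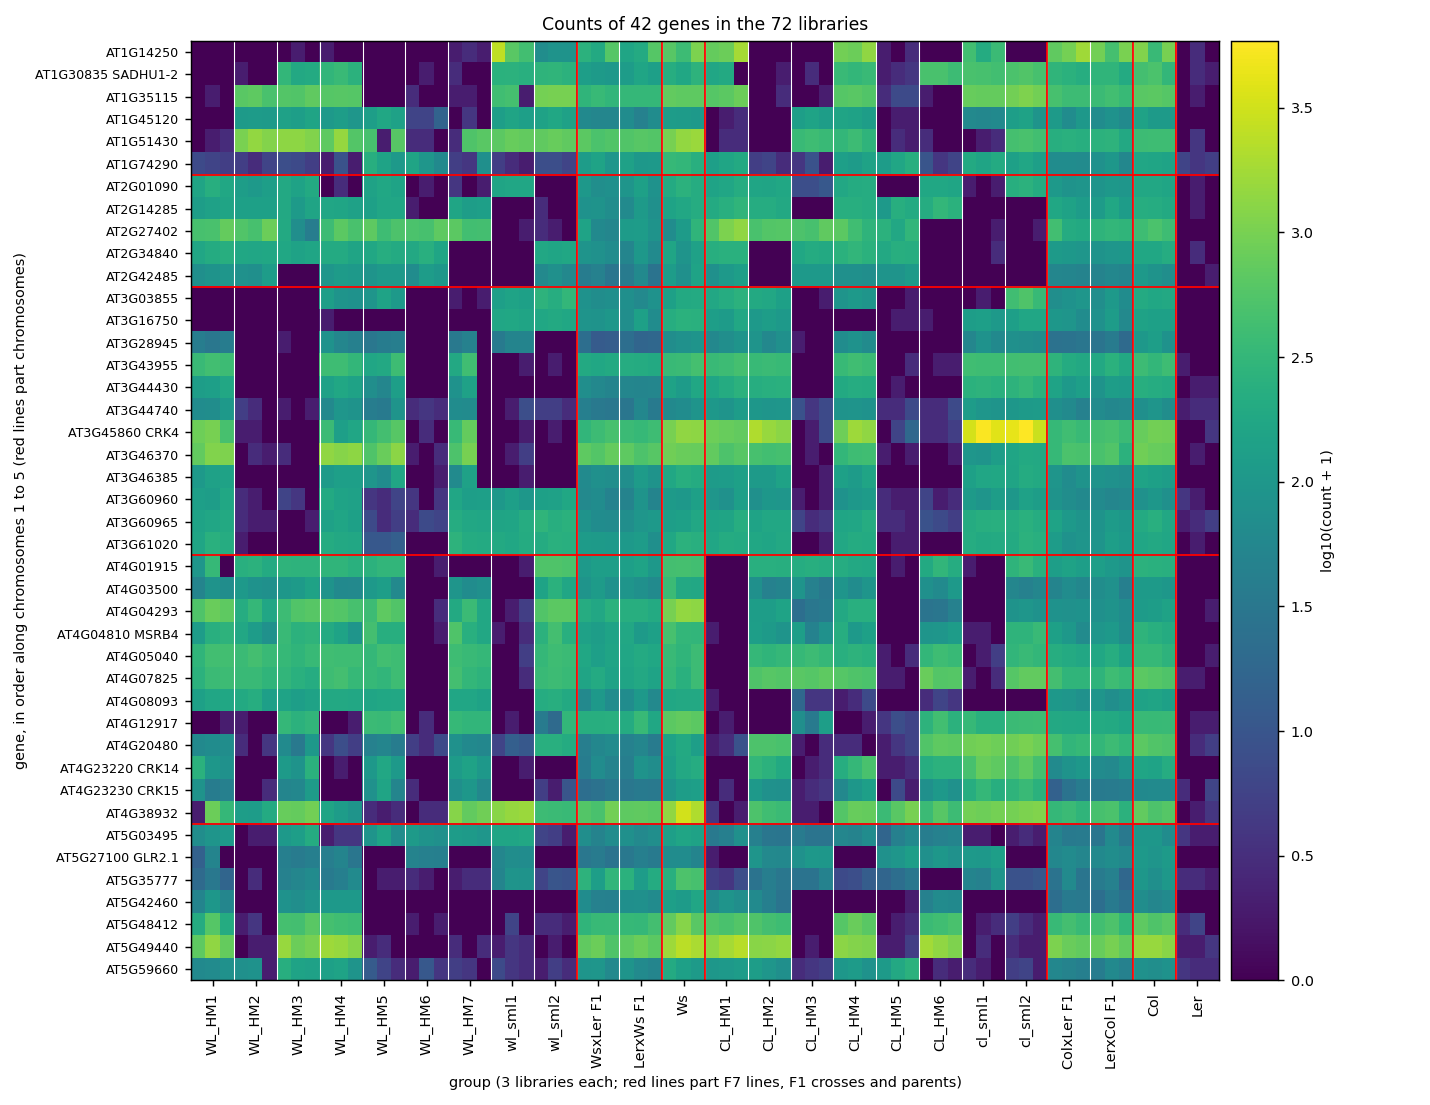
Counts of 42 of the genes (rows, in order along chromosomes 1 to 5) in all 72 libraries (columns, 3 per group), coloured by log10(count + 1). F7 lines are dark or bright in runs of neighbouring genes, every F1 library has counts of all genes drawn, and the 3 Ler libraries at the right have at most 5 counts.

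In the F1 hybrids most of the genes were expressed near 50% of the level of the parent that expressed them. For this description, counts were scaled by TMM over all 72 libraries, and the mean of the 6 F1 libraries was given as a percent of the mean of the parent that expressed the gene. The median over the 43 genes was 47.6% of Ws in the Ws/Ler F1, with an interquartile range of 39.5% to 56.8%, and 52.1% of Col in the Col/Ler F1, with an interquartile range of 46.1% to 54.0%. Without Ws replicate 2 the Ws/Ler median was 51.2%. Between 40% and 60% of the parent lay 24 genes in the Ws/Ler F1 and 33 genes in the Col/Ler F1. Over all 14185 genes expressed in Ws and Col, the median F1 level was 99.6% of Ws and 98.9% of Col. Since the rule set Ler near 0, a level near 50% is the mid-parent value of these genes.

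Few genes lay far from 50%. AT3G28945, a pseudogene on chromosome 3, was under 25% in both hybrids. It had 11 to 22 counts (median 16.5) in the Ws/Ler F1, against 70, 79 and 88 in Ws, and 19 to 36 counts (median 26.5) in the Col/Ler F1, against 102, 127 and 81 in Col. This was 24.1% of Ws and 23.2% of Col. In each system, the highest scaled count of the 6 F1 libraries lay below 50% of the lowest library of the expressing parent. This held for 4 of the 43 genes in the Ws/Ler F1 and for 2 in the Col/Ler F1, AT3G28945 included. In the other direction, all 6 F1 libraries lay above 50% of the highest parental library for 1 gene (Ws/Ler) and 2 genes (Col/Ler). The share of all genes in either class was not computed. AT4G04293, a pseudogene on chromosome 4, had 183 to 251 counts (median 220.5) in the Ws/Ler F1, against 993, 1425 and 1339 in Ws, which was 19.8% of Ws. The same gene was at 54.6% of Col in the Col/Ler F1, with 67 to 84 counts (median 81.5), against 116, 123 and 148 in Col.

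At the upper end, the leucine-rich repeat kinase AT3G46370 reached 89.1% of Ws in the Ws/Ler F1, with 511 to 756 counts (median 651), against 879, 794 and 776 in Ws. Its Col/Ler F1 level was 48.1% of Col, with 260 to 552 counts (median 492), against 885, 788 and 767 in Col. AT1G14250, a nucleoside phosphatase family gene, was at 107% of Col in the Col/Ler F1 and at 57.4% of Ws in the Ws/Ler F1. It varied widely, with 458 to 1692 counts in the Col/Ler F1, against 1124, 360 and 982 in Col, so its F1 and parent libraries overlapped. No gene was over 75% in both hybrids.

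**Figure D2:**
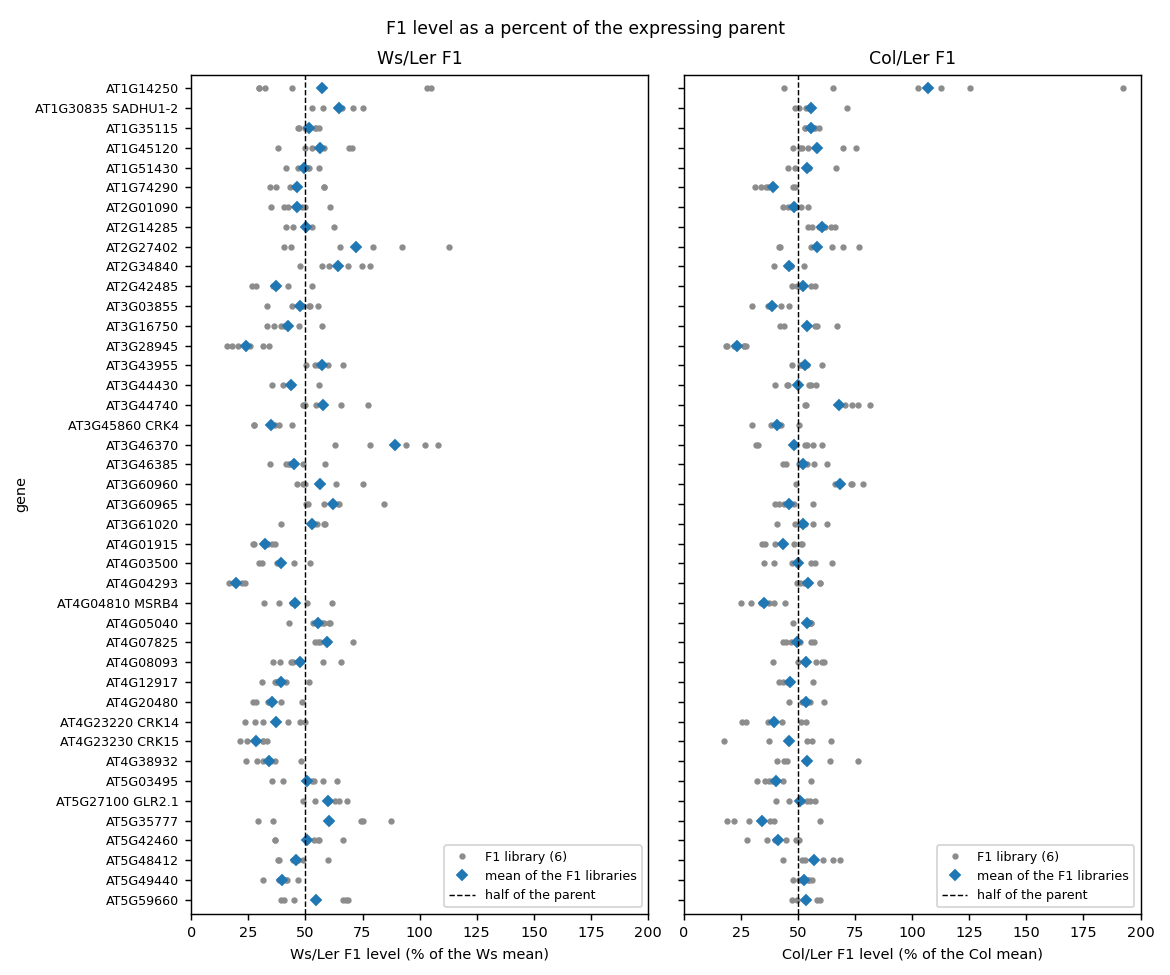
Level of 42 of the genes in the F1 as a percent of the mean of the expressing parent (Ws at the left, Col at the right), with 1 point per F1 library, a diamond for the mean of 6 libraries and a dashed line at 50%. Most diamonds sit near the line, with AT3G28945 at 24.1% and 23.2%, AT4G04293 at 19.8% of Ws and 54.6% of Col, and AT3G46370 at 89.1% of Ws and 48.1% of Col.

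The 2 hybrids carry these genes from Ws or from Col, beside the same Ler parent with almost no counts. Of the 41 genes with enough counts for the test, 21 differed between the Ws/Ler F1 and the Col/Ler F1 (edgeR quasi-likelihood test, Benjamini-Hochberg adjusted p at or under 0.05 over 17029 genes). Of all genes tested, 22.6% were called. The 43 genes had been chosen on parents only, and AT3G28945 and CRK15 had too few counts in the F1 libraries to be tested. Of the 21 genes, 12 were higher in the Ws/Ler F1 (12.8% of all genes tested were) and 9 were lower (9.79% of all genes tested). The median log2 fold change of the 41 genes was -0.01, against 0.01 over all genes tested. The order of the Ws and Col alleles in the parents was the same as in the hybrids for 20 of the 21 genes. The exception was AT3G46370, which was higher in the Ws/Ler F1 by 0.69 on the log2 scale (SE 0.17, adjusted p = 0.0123) while the log2 ratio of Ws to Col was -0.21.

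AT5G35777, a pseudogene, had 119 to 304 counts (median 229.5) in the Ws/Ler F1, against 17 to 62 counts (median 32) in the Col/Ler F1, with a log2 fold change of 2.75 (SE 0.32, adjusted p = 4.346e-05). AT4G20480, annotated as a putative endonuclease or glycosyl hydrolase, had 36 to 65 counts (median 48) in the Ws/Ler F1, against 298 to 455 counts (median 321.5) in the Col/Ler F1, with a log2 fold change of -2.69 (SE 0.13, adjusted p = 5.278e-09). For neither gene did the 6 libraries of one hybrid overlap with the 6 of the other. AT4G04293 was higher in the Ws/Ler F1 by 1.60 on the log2 scale (SE 0.10, adjusted p = 6.947e-08), although its share of the parental level was the lowest of all 43 genes there. AT1G51430, a cTAGE family gene, was higher by 1.42 (SE 0.09, adjusted p = 1.3298e-07), with 496 to 668 counts in the Ws/Ler F1, against 188 to 276 in the Col/Ler F1. AT2G27402, annotated as a plastid transcriptionally active protein, was lower in the Ws/Ler F1, with a log2 fold change of -1.39 (SE 0.25, adjusted p = 0.00145). AT1G14250 was also lower (log2 fold change -1.39, SE 0.41, adjusted p = 0.0269), but its call was lost without any 1 of 4 libraries: the adjusted p was 0.0626 without ColxLer F1 replicate 3, 0.0523 without LerxCol F1 replicate 3, 0.0561 without WsxLer F1 replicate 2 and 0.0575 without LerxWs F1 replicate 1. Leaf markers (2 of 4) were called lower in the Ws/Ler F1, where all 4 summed to 50028 to 56103 CPM (counts relative to the library total), against 53621 to 61636 in the Col/Ler F1. The root marker PYK10 was at 1.40 to 9.77 CPM in the Ws/Ler F1, against 10.8 to 12.4 in the Col/Ler F1, and was called lower. The 3 flower markers summed to 0.578 to 7.96, against 0.598 to 1.76 CPM, with 1 of the 2 tested called higher. Their part in the result was not tested.

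Between reciprocal crosses, none of the 40 genes with enough counts for the test in each system passed it. Of 40 genes tested in the WsxLer F1 against the LerxWs F1, 0 were called by edgeR's quasi-likelihood test and 0 had an unadjusted p at or under 0.05, where 0% of 16553 genes were called and 0.725% had such an unadjusted p. DESeq2 called 3 genes over the whole table in this comparison, none of which was among the 43. In the ColxLer F1 against the LerxCol F1, 0 of 40 genes were called and 0 had an unadjusted p at or under 0.05, where 0% of 16596 genes were called and 1.24% had such an unadjusted p. DESeq2 called 0 genes. The scaled counts of the 3 libraries of a cross did not overlap with those of the other cross for 4 of the 40 genes in the Ws/Ler system (4.29% of all genes tested) and for 1 of 40 in the Col/Ler system (5.92%). The log2 fold changes lay between -0.49 and 0.29 for the Ws/Ler crosses and between -0.40 and 0.36 for the Col/Ler crosses among the genes tested, with medians of -0.05 and -0.06, against -0.02 and -0.00 over all genes.

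In the F7 lines most combinations of a gene and a line were either present or absent, and some lay between. A gene was called present in a line with at least 50 counts in all 3 libraries, absent with at most 5 counts in all 3, and mixed otherwise. These are calls on counts, since no genotypes were measured. Below, a line is said to carry a gene that was called present, or mixed where this is stated. In the Ws/Ler system the 43 genes in 9 lines gave 387 combinations of a gene and a line, of which 177 were present (45.7%), 160 absent (41.3%) and 50 mixed. The Col/Ler system gave 344 combinations in 8 lines, of which 171 were present (49.7%), 135 absent (39.2%) and 38 mixed. No gene was present in every line or absent from every line of a system. Both states were seen for 41 genes among the Ws/Ler lines and for 39 among the Col/Ler lines.

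Where a gene was present, its mean level was a median 1.96 times the Ws/Ler F1 mean (interquartile range 1.52 to 2.33) and 1.95 times the Col/Ler F1 mean (interquartile range 1.66 to 2.31). The median was 94.4% of the Ws level (interquartile range 65.2% to 118%) and 101% of the Col level (84.6% to 115%). Of the 177 present combinations, 163 were above the F1 mean, and of the 171, 164 were. These ratios depend on the count limit of the present call. Where all F1 counts of a gene lay below that limit, a line at the F1 level was called mixed and left out. GLR2.1 had 26 to 42 counts in the Ws/Ler F1 and was mixed in WL_HM3 with 41, 36 and 41 counts. CRK15 had 22 to 33 counts in the Ws/Ler F1 and 14 to 39 in the Col/Ler F1. How far the limit raised the medians was not tested. Each line was also tested against the F1 of its system over 17830 genes (Ws/Ler) or 17599 genes (Col/Ler) by edgeR, and all 43 genes were tested in both. Of the present combinations, 106 of 177 were called higher than the F1 in the Ws/Ler lines and 145 of 171 in the Col/Ler lines, and 3 and 4 were called lower. All 160 and all 135 absent combinations were called lower. The presence call and the test read the same counts of the line, so this overlap is a description. In these fits all lines of a system shared 1 estimate of the spread, including lines whose sibling plants differed. In a fit restricted to the line and its F1, 136 combinations of any state were called higher in the Ws/Ler system and 148 in the Col/Ler system. With all lines in the fit these numbers were 107 and 148. The part of the shared estimate in the gap between the systems was not tested.

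Line by line, the Ws/Ler Hybrid Mimics ranged from 30 genes present and 8 absent in WL_HM4 to 5 present and 33 absent in WL_HM6. In WL_HM1, with 26 present, 9 absent and 8 mixed, 13 genes were called higher than the F1 (12.2% of all genes were) and 11 lower (16.3%). In WL_HM2, with 16 present, 26 absent and 1 mixed, 8 were higher (14.6% of all genes) and 27 lower (16.2%). WL_HM3 had 23 present, 15 absent and 5 mixed, with 14 higher (9.62%) and 17 lower (9.33%). Of the 12 genes on chromosome 3, WL_HM1 had 9 present that were absent from both WL_HM2 and WL_HM3. WL_HM4 had 16 genes higher (20.7%) and 12 lower (21.9%). In WL_HM5, with 24 present, 12 absent and 7 mixed, 14 were higher (11.6%) and 15 lower (14.7%). WL_HM6 had 3 higher (18.4%) and 37 lower (17%). WL_HM7, with 17 present, 17 absent and 9 mixed, had 10 higher (7.54%) and 18 lower (11.2%). The small line wl_sml1, with 14 present, 23 absent and 6 mixed, had 11 higher (17.5%) and 27 lower (21.6%), and without wl_sml1 replicate 1 the number higher was 7. The other, wl_sml2, with 22 present, 17 absent and 4 mixed, had 18 higher (21.4%) and 22 lower (26.4%).

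The Col/Ler Hybrid Mimics spanned a like range, with 35 genes present and 5 absent in CL_HM4 and 8 present and 28 absent in CL_HM5. CL_HM1, with 24 present, 15 absent and 4 mixed, had 23 genes called higher than the F1 (6.19% of all genes were) and 17 lower (7.25%). CL_HM2, with 28 present, 11 absent and 4 mixed, had 25 higher (8.15%) and 11 lower (8.94%). CL_HM3 had 9 present, 23 absent and 11 mixed, with 9 higher (9.99%) and 30 lower (12.3%). CL_HM4 had 30 higher (13.2%) and 7 lower (12.6%). In CL_HM5, 6 were higher (11.2%) and 33 lower (12.5%). CL_HM6, with 16 present, 21 absent and 6 mixed, had 12 higher (16.5%) and 25 lower (16%). In cl_sml1, with 23 present, 19 absent and 1 mixed, 19 were higher (26.7%) and 22 lower (28.3%), and in cl_sml2, with 28 present, 13 absent and 2 mixed, 24 were higher (26.9%) and 15 lower (27.4%). In all 17 lines the share of the 43 genes called in either direction was above that of all genes tested. The rule chose genes near 0 in Ler, so a line like either parent departs from the F1 at these genes. A high share called follows from that choice and is no result about the genes. It did not hold for each direction: in WL_HM6, 3 of the 43 genes were higher, where 18.4% of all genes were.

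**Figure D3:**
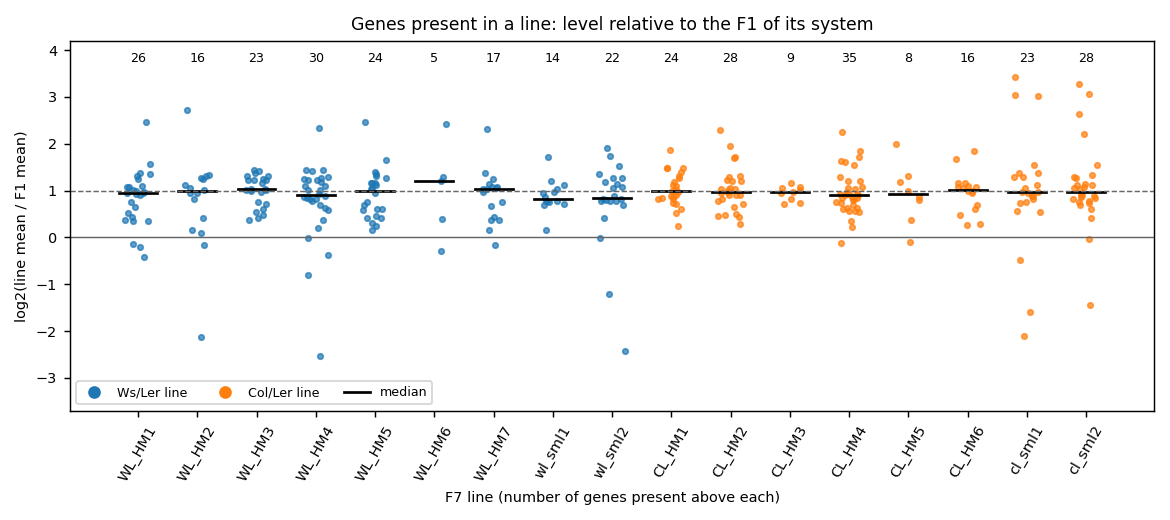
Level of each gene present in an F7 line relative to the F1 of its system, as log2 of the ratio of means, with 1 point per gene, a black bar for the median and the number of genes present at the top. The medians of all 17 lines sit near 1 (dashed, a level of 2 F1 units), and the lowest points lie in WL_HM2, WL_HM4, wl_sml2, cl_sml1 and cl_sml2. Mixed genes are not drawn, so a gene with F1 counts below the limit of the present call appears only where it was higher.

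AT3G16750, an uncharacterized gene on chromosome 3, and the nucleoside phosphatase gene AT1G14250 on chromosome 1 were absent from all 7 Hybrid Mimics of the Ws/Ler system and present in both small lines. AT3G16750 had 170, 172 and 159 counts in wl_sml1 and 176, 196 and 177 in wl_sml2, against 67 to 136 (median 85.5) in the Ws/Ler F1, and at most 1 count in any Ws/Ler Hybrid Mimic library. The small lines did not overlap with the F1, and the log2 fold change was 0.73 (SE 0.22, adjusted p = 0.0144) in wl_sml1 and 0.68 (SE 0.22, adjusted p = 0.0181) in wl_sml2. Of the Col/Ler lines, CL_HM1, CL_HM2, cl_sml1 and cl_sml2 had it present, with 105 to 178 counts, against 58 to 120 (median 86) in the Col/Ler F1, and it was called higher in all 4 and was absent from the other 4. Whether 7 Hybrid Mimics against 2 small lines differ was not tested. AT1G14250 had 2517, 627 and 427 counts in wl_sml1 but 69, 86 and 85 in wl_sml2, against 166 to 597 (median 232) in the F1. It was called lower than the F1 in wl_sml2 (log2 fold change -2.44, SE 0.58, adjusted p = 0.00197), although present there. Its call as higher in wl_sml1 rested on replicate 1, without which the adjusted p was 0.492. Of the 4 leaf markers, 3 were called lower in each of these small lines, where they summed to 40962 to 42708 (wl_sml1) and 31919 to 34279 CPM (wl_sml2), against 50028 to 56103 in the Ws/Ler F1, and their part in these levels was not tested.

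The opposite pattern was seen on chromosome 2. AT2G14285, a small nuclear ribonucleoprotein family gene, was present in 6 of 7 Ws/Ler and 5 of 6 Col/Ler Hybrid Mimics and absent from all 4 small lines, where no library had more than 2 counts. AT2G27402 was present in 6 of 7 Ws/Ler Hybrid Mimics, mixed in WL_HM3 (196, 72 and 38 counts), present in 5 of 6 Col/Ler Hybrid Mimics and absent from the same 4 small lines. Its level in the Ws/Ler Hybrid Mimics was far above the F1. The 6 lines that carried it had 383 to 827 counts in every library, against 53 to 155 (median 100.5) in the Ws/Ler F1 and 66, 117 and 291 in Ws. No library of these lines overlapped with the F1 or Ws. The log2 fold change over the F1 lay between 2.30 (WL_HM7, SE 0.34, adjusted p = 3.1959e-05) and 2.72 (WL_HM2, SE 0.34, adjusted p = 2.0008e-06). The 6 lines were at 359% to 476% of Ws. The 5 Col/Ler Hybrid Mimics with the gene ranged from 54.8% to 212% of Col, with 547, 1049 and 1394 counts in CL_HM1 at the upper end and 265, 182 and 301 in CL_HM5 at the lower end, against 194 to 428 (median 287.5) in the Col/Ler F1. CL_HM5 did not pass the test (log2 fold change -0.11, SE 0.27, adjusted p = 0.802), and CL_HM4 passed it only with CL_HM4 replicate 1 (log2 fold change 0.80, and 0.37 with an adjusted p of 0.314 without it).

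The cysteine-rich kinases moved above their parental level in several Col/Ler lines. CRK4 had 3310, 5615 and 3936 counts in cl_sml1 and 4190, 5869 and 2971 in cl_sml2, against 339 to 463 (median 386) in the Col/Ler F1 and 787, 931 and 893 in Col. All 6 small-line libraries lay above all F1 and Col libraries, with a log2 fold change over the F1 of 3.44 (SE 0.23, adjusted p = 2.2222e-11) in cl_sml1 and 3.27 (SE 0.23, adjusted p = 5.1727e-11) in cl_sml2. In the Hybrid Mimics that carried it, CRK4 had 876, 777 and 722 counts in CL_HM1, 2084, 1556 and 1289 in CL_HM2 and 877, 1632 and 1393 in CL_HM4, all above the F1. The neighbours CRK14 and CRK15 on chromosome 4 followed. CRK14 had 469, 769 and 689 counts in cl_sml1 and 522, 685 and 454 in cl_sml2, against 58 to 102 (median 75.5) in the F1, with log2 fold changes of 3.04 (SE 0.22) and 2.65 (SE 0.22), and CRK15 had 219 to 321 and 257 to 357 counts, against 14 to 39 (median 34.5) in the F1, with log2 fold changes of 3.02 (SE 0.30) and 3.07 (SE 0.30). The adjusted p of these 4 comparisons was between 1.947e-10 and 1.232e-08. In CL_HM2, CL_HM4 and CL_HM6, which also carried both genes, CRK14 was 3.61 to 4.77 times the F1 and CRK15 3.18 to 3.30 times. Over all 5 receptor kinases, present combinations in the Col/Ler lines had a median of 3.44 times the F1, against 1.86 times for the other protein-coding genes. CRK15 had F1 counts below the limit of the present call, so its present combinations had to lie above the F1. The 3 mixed combinations of the kinases in the Col/Ler lines had at most 18 counts, below the F1 of their gene. In the Ws/Ler lines the medians of the kinases and the other genes were 2.03 and 1.96 times, with 8 kinase combinations mixed and left out. There CRK4 had 851, 979 and 471 counts in WL_HM1, 370, 135 and 168 in WL_HM4 and 325, 445 and 614 in WL_HM5, against 305 to 467 in the F1, and passed the test in none of the 3 lines, WL_HM4 being at 0.570 times the F1 and 19.8% of Ws. In the fit restricted to the line and its F1, CRK4 was higher in WL_HM1 (log2 fold change 0.95, adjusted p = 0.0151) and lower in WL_HM4 (-0.81, adjusted p = 0.0436).

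AT3G46370, a kinase of the same chromosome 3 region as CRK4, went the other way. It had 96, 89 and 125 counts in cl_sml1 and 161, 191 and 187 in cl_sml2, against 260 to 552 (median 492) in the Col/Ler F1 and 885, 788 and 767 in Col. It fell by 2.10 on the log2 scale (SE 0.22, adjusted p = 1.9026e-08) in cl_sml1 and by 1.45 (SE 0.20, adjusted p = 2.18e-06) in cl_sml2, and was 11.3% and 17.6% of Col. The gene was therefore expressed in these lines, at a level below that of the F1. Among the Ws/Ler lines it had 729, 1126 and 1078 counts in WL_HM1, 1389, 1212 and 1365 in WL_HM4 and 534, 794 and 1302 in WL_HM5, against 511 to 756 in the F1. All WL_HM4 libraries lay above the F1 (2.01 times the F1 mean), but none of the 3 lines passed the test, with an adjusted p of 0.123 in WL_HM4. In a fit restricted to the line and its F1, WL_HM4 (log2 fold change 1.01, adjusted p = 0.00126) and WL_HM1 (0.51, adjusted p = 0.0361) passed it. AT5G59660, a kinase on chromosome 5, was absent from both Col/Ler small lines and had 75 to 250 counts in CL_HM1, CL_HM2, CL_HM4 and CL_HM5, against 37 to 60 (median 46) in the F1. All 4 leaf markers were called lower in cl_sml1 and cl_sml2, where they summed to 33031 to 36921 and 35832 to 37136 CPM, against 53621 to 61636 in the Col/Ler F1. No leaf marker was at 0, and the part of this difference in the kinase levels was not tested.

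**Figure D4:**
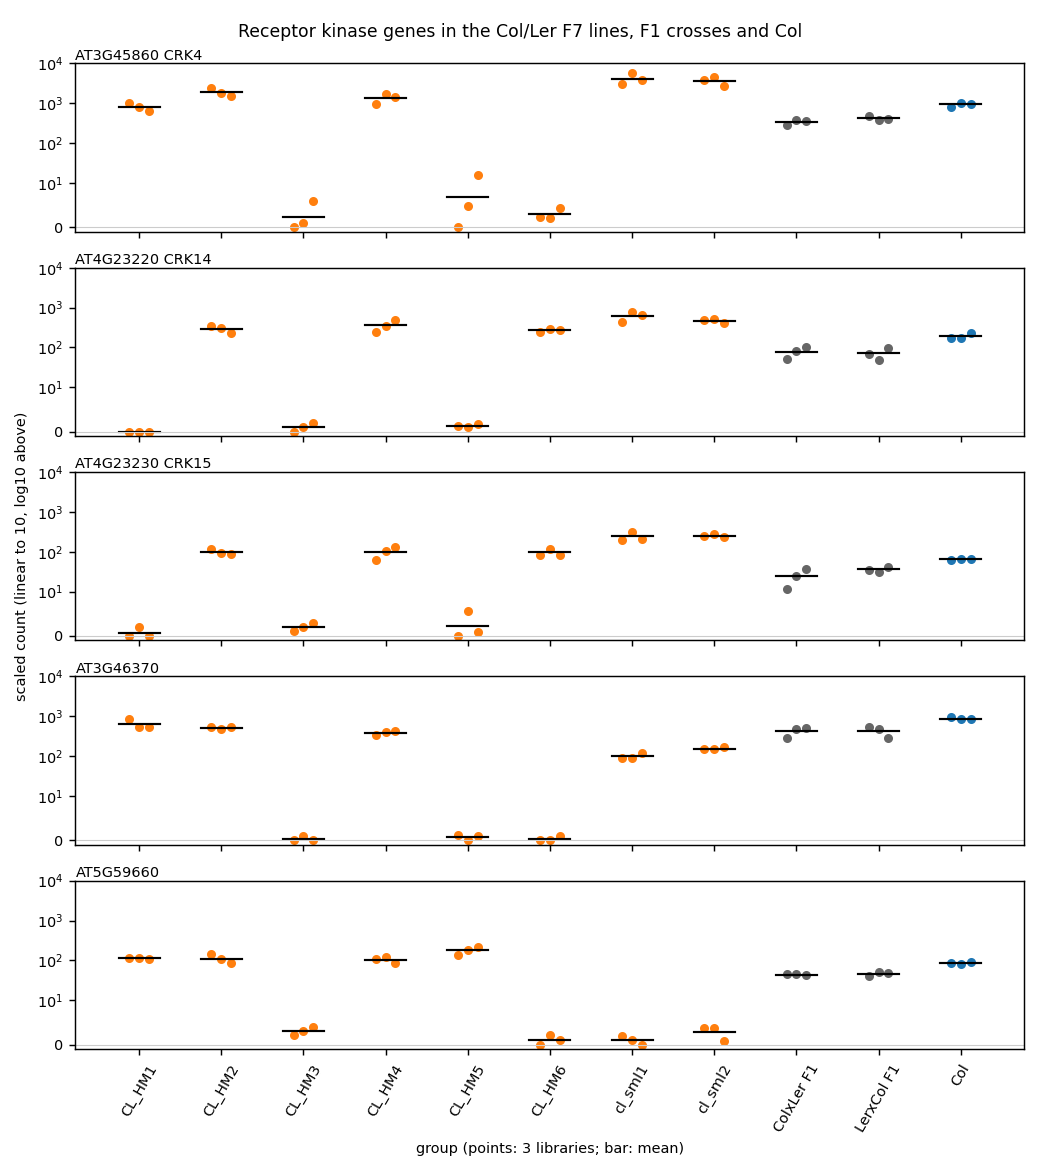
Scaled counts of the 5 receptor kinase genes in the Col/Ler F7 lines, both F1 crosses and Col (3 points per group with a bar at the mean; the axis is linear to 10 and log10 above). CRK4, CRK14 and CRK15 are highest in cl_sml1 and cl_sml2, AT3G46370 is lowest there among the lines that carry it, and absent lines lie near 0.

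Genes that lie near each other mostly had the same call in a line. Consecutive genes with fewer than 100 annotated genes between them had opposite calls in 3 of 130 comparisons of a line in which both were present or absent (2.31%), those 100 to 499 genes apart in 4 of 114 (3.51%) and those 500 or more apart in 56 of 266 (21.1%). All 3 of the closest cases were AT4G07825 and AT4G08093 in Col/Ler lines. On chromosome 3 the 6 genes AT3G43955, AT3G44430, AT3G44740, CRK4, AT3G46370 and AT3G46385 never had opposite calls in any of the 17 lines. Among Col/Ler lines they were carried by CL_HM1, CL_HM2, CL_HM4 and both small lines while in CL_HM3, CL_HM5 and CL_HM6 each was absent or mixed. In the Ws/Ler system they were carried by WL_HM1, WL_HM4 and, with 1 of the 6 mixed, WL_HM5. The sibling plants of WL_HM5 were not alike there, since replicate 3 had the highest scaled count at all 6 genes. In replicates 1, 2 and 3 of WL_HM5 the scaled counts were 193, 177 and 404 for AT3G43955. For AT3G46370 they were 610, 738 and 1346.

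In WL_HM7 the same 6 genes separated the 3 sibling plants. AT3G43955 had 188, 403 and 0 counts in replicates 1, 2 and 3, against 175 to 213 (median 195) in the Ws/Ler F1 and 358, 367 and 448 in Ws. CRK4 had 349, 763 and 0 counts, against 305 to 467 (median 375.5) in the F1. AT3G46370 had 518, 999 and 0 counts, against 511 to 756 (median 651) in the F1. Over the 6 genes, replicate 1 was at a median 0.816 times the F1 mean (0.679 to 1.60), replicate 2 at 1.87 times (1.53 to 2.51) and replicate 3 at 0. All 6 genes had 0 counts in replicate 3 and at least 63 counts in replicates 1 and 2. Replicate 3 thus stood apart at every gene, and replicate 2 was above replicate 1 at all 6 genes after scaling, although AT3G44740 had 65 counts in replicate 2 and 67 in replicate 1.

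**Figure D5:**
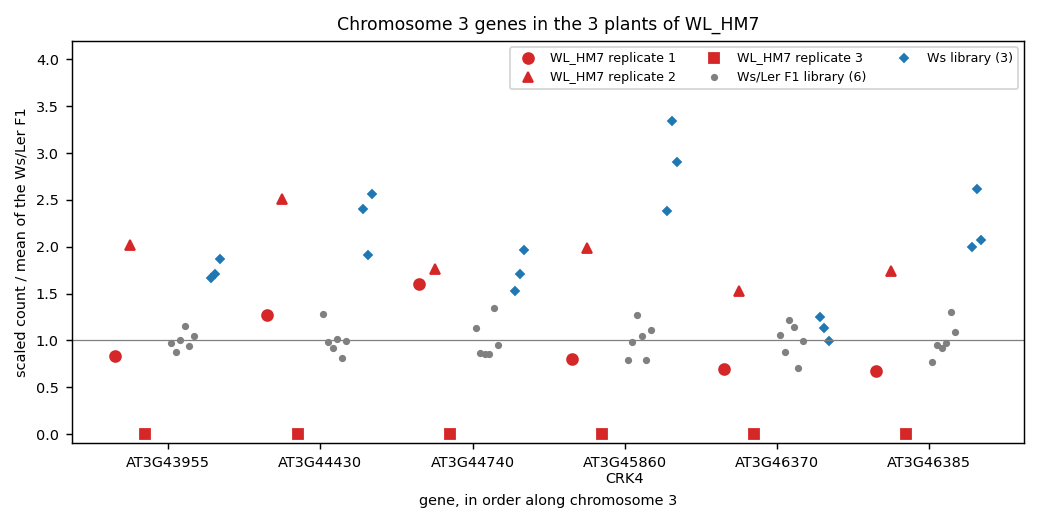
Scaled counts of 6 neighbouring chromosome 3 genes relative to the mean of the Ws/Ler F1 in the 3 plants of WL_HM7 (red), the 6 F1 libraries (grey) and the 3 Ws libraries (blue). Replicate 3 is at 0 for all 6 genes, replicate 1 lies at 0.679 to 1.60 and replicate 2 at 1.53 to 2.51.

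Such a split within a line, with at least 1 library at 50 counts or more and at least 1 at 5 or fewer and none between, was found in 14 of the 88 mixed combinations. WL_HM7 held 8 of the 14, the 6 above and AT1G51430 (2, 544 and 630 counts) and AT1G74290 (4, 3 and 75 counts). WL_HM1 held AT4G01915 (95, 331 and 0 counts) and AT4G38932 (1, 825 and 327 counts). WL_HM2 had AT5G59660 (76, 83 and 1 counts), WL_HM5 had AT1G51430 (463, 1 and 606 counts) and wl_sml1 had AT1G35115 (406, 459 and 1 counts). CL_HM1, with SADHU1-2 at 170, 194 and 0 counts, was the only Col/Ler line with such a case. In these lines the mean of 3 libraries describes no single plant.

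On chromosome 4 the 5 genes AT4G03500, AT4G04293, MSRB4, AT4G05040 and AT4G07825 were carried together by 7 of 9 Ws/Ler lines and 5 of 8 Col/Ler lines, and 4 of the 5 Col/Ler lines had at least 1 of the genes mixed. The next gene, AT4G08093, annotated as a transcribed pseudogene, differed between the systems. In the Ws/Ler lines it was present in the same 7 lines as the others, with 129 to 229 counts, against 58 to 106 (median 66.5) in the F1. In the Col/Ler F1 it had 73 to 100 counts (median 88.5), against 146, 158 and 136 in Col, but no Col/Ler F7 line had it present. It had 0, 0 and 0 counts in CL_HM2, 17, 3 and 3 in CL_HM3, 1, 2 and 6 in CL_HM4, 2, 5 and 3 in CL_HM6 and 0, 0 and 0 in cl_sml2. These 5 lines had 499 to 795 counts of AT4G07825, 84 annotated genes before it. It was called lower than the F1 in all 8 Col/Ler lines and higher in all 7 Ws/Ler lines that carried it.

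AT5G35777, the pseudogene with the widest difference between the F1 hybrids, was also the one most often called mixed, in 12 of 17 lines. No line had it present. It was lower than the F1 in all 9 Ws/Ler lines, where its highest count was 87, against 119 to 304 (median 229.5) in the F1. Among the Col/Ler lines it was lower in 4 of 8, with 0, 0 and 0 counts in CL_HM6, and called higher in cl_sml1 (49, 45 and 91 counts, against 17 to 62 in the F1, log2 fold change 0.79, SE 0.31, adjusted p = 0.0334), a call lost without cl_sml1 replicate 3 (adjusted p = 0.367) and without ColxLer F1 replicate 1 (0.0704), ColxLer F1 replicate 3 (0.0591) or LerxCol F1 replicate 3 (0.0684). AT1G74290, an alpha/beta-hydrolase family gene, was mixed in 7 lines, in 6 of which its counts did not pass 9. AT3G44740, annotated as a class II aminoacyl-tRNA synthetase family gene, AT4G20480 and AT5G03495, an RNA-binding protein gene, were mixed in 6 lines each. AT5G03495 was mixed in all 6 Col/Ler Hybrid Mimics, with 16 to 77 counts, against 28 to 62 in the F1, and absent from both small lines.

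The 4 non-coding RNAs were each present in some lines and absent in others. AT5G48412, on chromosome 5, was present in WL_HM1, WL_HM3 and WL_HM4 and in 4 Col/Ler Hybrid Mimics, and it shared every present and absent call with AT5G49440, 146 annotated genes after it. AT5G49440 had 690, 1411 and 752 counts in WL_HM1, 1544, 846 and 990 in WL_HM3 and 1653, 1551 and 1215 in WL_HM4, against 536 to 844 (median 697.5) in the Ws/Ler F1. It was called higher in WL_HM3 (log2 fold change 0.75, SE 0.18, adjusted p = 0.00505; 0.0936 without WL_HM3 replicate 1) and WL_HM4 (1.02, SE 0.18, adjusted p = 0.000118) and had a log2 fold change of 0.33 in WL_HM1 (SE 0.18, adjusted p = 0.179). In CL_HM1, CL_HM2, CL_HM4 and CL_HM6 it had 1078 to 2322 counts, against 731 to 1045 (median 801.5) in the Col/Ler F1, and was called higher in all 4. AT4G12917, on chromosome 4, was present in 3 of 7 Ws/Ler and 1 of 6 Col/Ler Hybrid Mimics. Both Col/Ler small lines had it present, and neither Ws/Ler small line did. AT4G38932 is annotated antisense to AT4G38930, and since the strand setting of the counts is not given, reads of the pair cannot be told apart by strand. In Ler, AT4G38930 had 373 to 499 counts, against 0 to 3 of AT4G38932. Whether reads of AT4G38930 enter the counts of AT4G38932 was not tested. AT4G38932 was present in 4 Hybrid Mimics and both small lines of each system. It had 780, 757 and 924 counts in WL_HM3 and 1205, 723 and 907 in WL_HM7, against 486 to 924 (median 671.5) in the Ws/Ler F1. The small lines had 1258, 1469 and 1589 counts (wl_sml1) and 384, 367 and 359 (wl_sml2). It was called lower than the F1 in WL_HM2 (126, 121 and 197 counts) and WL_HM4 (159, 120 and 87 counts). The log2 fold changes were -2.12 (SE 0.55, adjusted p = 0.00568) and -2.51 (SE 0.57, adjusted p = 0.00113). No library of these 2 lines overlapped with the F1. Present combinations of the 4 non-coding RNAs had a median of 1.34 times the F1 in the Ws/Ler lines and 1.86 times in the Col/Ler lines, and those of the 12 pseudogenes 1.99 and 1.95 times. Mixed combinations are left out of these medians too.

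The loci listed for comparison were 27 genes for glucosinolates, immunity and growth that are known to vary between accessions. Of the 24 with enough counts, 4 were higher and 6 lower in the Ws/Ler F1 than in the Col/Ler F1, where 12.8% of all genes tested were higher and 9.79% lower. AOP2 and GSL-OH, which modify the side chain of glucosinolates, were low in Ler but did not meet the rule. AOP2 had 1528 to 3270 counts in Ws and 1629 to 1795 in Col, against 21 to 48 in Ler, and GSL-OH had 9585 to 12977 counts in Ws and 8810 to 11384 in Col, against 20 to 150 in Ler. ERECTA, the receptor kinase gene whose mutation gives Ler its name, had 525 to 1021 counts in Ws and 759 to 992 in Col, against 671 to 1019 in Ler.

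The smallest library held 17741358 counts and the largest 28527725 (median 20432113), so 50 counts are few and a count of 0 says only that the gene was not detected at this depth. Replicates of every group differed by more than counting noise (chi-square per gene between 4.28 and 86.1), so none was counted as a duplicate. The 4 leaf markers summed to 31919 to 73627 CPM in all libraries, while the 3 flower markers summed to 0.166 to 8.16 and the 3 seed markers to 0 to 0.160. The root marker PYK10 was at 0.273 to 48.4 CPM.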

How the data were processed

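The authors aligned 150 bp paired reads of rosette leaf mRNA to TAIR10 with STAR 2.5.3a, using Araport11 genes, and deposited the gene counts with no normalization. Reads that mapped to several places were not counted by gene, so copies of a gene family are uncertain, and which strand column was used is not given in the sources used here. Names, biotypes and gene order came from the TAIR10.1 RefSeq annotation (37051 of 37336 identifiers matched). Its build differs, so no coordinates or sequences are given.

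Counts were tested in R 4.3.3 with edgeR 4.0.16 (TMM, glmQLFit, glmQLFTest; limma 3.58.1) and DESeq2 1.42.0 as an alternative; tables used Python 3.11.15 with pandas 2.3.3 and matplotlib 3.10.9. A gene entered a test if any library of the fit had 50 counts or more, with Benjamini-Hochberg adjustment over all of them and calls at an adjusted p at or under 0.05. Each line was set against both reciprocal crosses of its system as 1 group of 6 libraries, in fits of 33 (Ws/Ler) and 30 (Col/Ler) libraries without parents. The fits were tested on simulated data. Scaled counts use TMM over the 72 libraries. The p-values measure the spread between pools of plants (F1) and sibling plants (lines). The depth was 17741358 to 28527725 counts per library.

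The genes and lists were chosen with earlier results of these data known. Genes named were the 10 most abundant in Ws and Col, any called between reciprocal crosses, those under 25% or over 75% of the parent in both hybrids, the 6 largest called differences between the hybrids, those present or absent in every line of a system, the 5 most often mixed, members of the fixed lists, neighbouring members and genes at the limits of the rule; AT3G46370's exceptional sign, AT2G14285, AT3G16750, AT4G08093, AT5G59660, the split combinations and other genes outside this rule were named after their values were seen. Alternatives were other size factors, DESeq2, no filter (at least 1 count), a replicate block, a fit restricted to the line and its F1, leaving out each library, other limits for present and absent and for the gene rule, and, added after seeing the data, a fit without CL_HM5 and CL_HM6. The values of 1 of the 43 genes are not reported here, although it is included in the counts and medians.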

Additional observations from a re-analysis of the deposited data

Results flagged for a closer look

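In each gene and system the 6 F1 libraries were checked for a library far from the others by Dixon's criterion, which chance alone meets in about 1 of 20 groups; 5 of 86 groups met it. AT3G61020 had a scaled count of 82.6 in LerxWs F1 replicate 3, against 111 in the next library and 124 in the highest. AT4G07825 had 208 in WsxLer F1 replicate 2, against 177 in the next and 160 in the lowest. In the Col/Ler F1, SADHU1-2 (AT1G30835) had 318 in LerxCol F1 replicate 1, against 245 in the next, and AT4G12917 had 214 in the same library, against 178. AT4G05040 had 160 in LerxCol F1 replicate 3, against 181 in the next library. None of the 43 genes had all 6 Ws/Ler F1 libraries above and all 6 Col/Ler F1 libraries below 50% of the parent, or the reverse (0 genes).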

How the results depend on the processing

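No result reversed under the alternatives run. Summed over lines, the number of gene and line combinations called higher than the F1 was 107 in the Ws/Ler system (108 with a replicate block, 110 with DESeq2, 136 in a fit restricted to the line and its F1, 103 to 119 leaving out a library) and 148 in the Col/Ler system (147 with a replicate block, 152 with DESeq2, 144 to 151 leaving out a library); the number lower was 186 (186 with the block, 185 to 189) and 160 (159 with the block, 159 to 160). Without wl_sml1 replicate 1 the number higher in that line was 7, within a range of 7 to 12 leaving out a library. Genes called between the F1 hybrids numbered 21 with the replicate block, 22 with DESeq2 and 18 to 21 leaving out a library; AT3G44740 lost its call without any 1 of 8 libraries (adjusted p = 0.0516 to 0.0673, edgeR) and AT4G03500 without any 1 of 3 (0.0518 to 0.0531). In a fit without CL_HM5 and CL_HM6, chosen after seeing the data, 130 combinations were higher and 102 lower over the 6 remaining Col/Ler lines. The totals of 148 and 160 above include CL_HM5 (6 higher, 33 lower) and CL_HM6 (12 higher, 25 lower). The replicate numbers did not pair the samples: correlations of same-numbered libraries of 2 groups ranged from -0.450 to 0.605, and 9 of 100 pairs of groups had all 3 above 0.1. The block moved none of these counts by over 1.5 times. The median F1 level in the Ws/Ler system was 47.3% to 51.2% of Ws leaving out a library, with 51.2% without Ws replicate 2. Mixed combinations fell to 21 (Ws/Ler) and 6 (Col/Ler) with present at 20 or more and absent at 10 or fewer counts, and to 21 in the Col/Ler system with limits of 25% and 5% of the parent. The first of these limits leaves fewer counts between present and absent; for the second the cause was not tested. Requiring 0 counts in every Ler library left 13 genes, and the other rules for the genes gave 30 to 57. A single line is 3 sibling plants, and no alternative adds plants.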
